A study of Mus musculus with 18 samples.

Results

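The comparison described here is that of detached mouse retina injected with INS37217 against detached retina injected with saline, both 24 h after the injection. It was defined by the sample titles and holds 6 of the 18 arrays of the study, 3 from INS37217 retinas and 3 from saline retinas. All mice were Balb/cJ. The retina was detached by a subretinal injection of 1 uL of saline containing 10 uM INS37217 in one group and 1 uL of saline alone in the other, so every array came from a detached retina and no uninjected retina was part of the comparison. Each array carried RNA of a pool of more than 5 retinas, and the study took such pools at 2 h, 24 h and 7 d, 3 arrays per group at each time. At 24 h, per the study's design, the retina lay back in place but was still grossly folded.

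INS37217 is an agonist of the P2Y2 receptor, a G protein-coupled receptor for extracellular nucleotides whose activation at the pigment epithelium promotes the removal of fluid from under the retina. Many of the genes named below belong to the interferon response. In that response, sensors of foreign or misplaced nucleic acid lead to the secretion of interferon, interferon receptors activate STAT proteins and interferon regulatory factors, and these bind a short response element in the promoters of effector genes that block virus replication, present antigen or recruit leukocytes. Detachment of the retina is also known to activate Mueller glia and microglia and to draw blood leukocytes into the eye.

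Signals are given as RMA values, which are log2 probe set signals as deposited by the authors, and a difference of 1 between groups is a doubling. Differences are INS37217 minus saline with their SE from limma, in a fit with the replicate number as a block, and adjusted p values are Benjamini-Hochberg values over all 22626 probe sets that are not Affymetrix controls. A probe set or gene passed at an adjusted p under 0.05. In the fit without the block far fewer passed, so beside a gene that lost its 24 h call there the adjusted p of that fit is given as well.

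Several properties of the arrays bear on these values. The source names of 8 of the 9 INS37217 arrays, all 3 at 24 h among them, speak of saline only, against their titles, which were followed, and the source name of saline 7 d replicate 2 gives 2 h. Without that array, 216 probe sets passed at 24 h, 198 of them among the 201 that passed with it. Replicate 1 arrays stood apart from replicates 2 and 3. At 24 h they correlated with the other arrays of their own group at 0.9755 to 0.981, whereas replicates 2 and 3 correlated at 0.9950 to 0.9961. With replicates 2 and 3 alone 189 probe sets passed, 142 of them shared with the 201. The RNA quality measure, the gap between the beta-actin probe sets at the 3′ and 5′ ends, was 0.623 ± 0.0231 in INS37217 retinas and 0.61 ± 0.0854 in saline retinas (SD, n = 3 each, two-sided exact permutation p = 0.9, smallest possible 0.1). Rod genes, which define the tissue, averaged 10.83 to 10.88 over 27 measured members on INS37217 arrays and 10.92 to 10.97 on saline arrays. The 16 lens genes, which mark tissue next to the retina, averaged 11.30 to 11.40 on INS37217 arrays and 11.33 to 11.46 on saline arrays. These means and the beta-actin gap are for 24 h. At 2 h the gap and the lens genes differed between the groups, and values are given with the tests between times.

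At 24 h, 201 of 22626 probe sets (0.888%) passed. INS37217 retinas were higher in 139 of them (0.614% of all) and lower in 62 (0.274%), while the median difference over all genes was -0.01. All 139 higher probe sets were higher in each of the 3 pairs of arrays with the same replicate number, and in 123 the INS37217 arrays did not overlap the saline arrays. Their median difference was 0.67, with a range of 0.42 to 2.74, and 27 differed by at least 1 on the log2 scale. Among probe sets above the median level, 61 were higher and 66 lower, so the excess of higher calls did not hold there. The lower probe sets moved less. Their median was -0.52, their range -1.06 to -0.37, and in 39 of 62 the groups did not overlap. Over all probe sets, INS37217 arrays lay above every saline array in 3.43% and below every saline array in 4.05%. Without the replicate block 27 probe sets passed, 24 higher and 3 lower (0.0133%), and all 27 were among the 201. Leaving out 1 array of the comparison also cost calls, and below this is called an omission. Then 88 passed without INS37217 replicate 2, 102 without INS37217 replicate 3, 106 without saline replicate 1 and 117 without saline replicate 3.

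The genes described next were taken 1 probe set per gene, that of highest mean signal. On that basis 94 of 12393 genes (0.758%) were higher in INS37217 retinas and 34 (0.274%) lower. These percentages are the background against which each gene list below can be read. Other probe sets of a gene did not always pass with it. For Ifi44l 2 of 3 passed (differences of 0.15 to 1.28), for H2-K1 3 of 4 (0.16 to 0.70), for Socs3 2 of 3 (0.47 to 0.80), for Cebpb 1 of 2 (0.33 and 0.68) and for Il1rn 1 of 3 (0.07 to 0.57).

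Many interferon effector genes, though not all, carry the response element in their promoters. The promoters of 5 genes that rose are shown because they hold its core, together with that of Slfn4, the gene with the largest difference. Not every effector that rose had a match, and Ifit2 had none of the core. The 160 bases before the transcription start are given 5′ to 3′ on the strand of the gene, from RefSeq on GRCm38.p6. Capitals mark the core of the element, which is GAAA, any 2 bases and GAAA, or its reverse complement, TTTC, any 2 bases and TTTC.
Ifit1, chr19:34640729-34640888, plus strand: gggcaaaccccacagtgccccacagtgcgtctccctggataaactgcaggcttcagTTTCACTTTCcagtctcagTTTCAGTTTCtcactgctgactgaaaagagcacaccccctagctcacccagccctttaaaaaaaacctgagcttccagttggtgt
Ifit3, chr19:34583369-34583528, plus strand: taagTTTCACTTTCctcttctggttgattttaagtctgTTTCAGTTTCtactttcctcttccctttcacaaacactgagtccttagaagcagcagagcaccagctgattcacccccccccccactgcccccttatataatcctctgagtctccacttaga
Rsad2, chr12:26456453-26456612, minus strand: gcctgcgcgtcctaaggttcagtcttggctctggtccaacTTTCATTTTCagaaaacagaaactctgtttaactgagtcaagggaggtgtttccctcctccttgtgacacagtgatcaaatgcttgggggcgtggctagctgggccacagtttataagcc
Gbp3, chr3:142559884-142560043, plus strand: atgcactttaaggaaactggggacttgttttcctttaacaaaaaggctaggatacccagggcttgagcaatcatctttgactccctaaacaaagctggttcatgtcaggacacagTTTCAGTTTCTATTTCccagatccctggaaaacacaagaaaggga
Oas1a, chr5:120907526-120907685, minus strand: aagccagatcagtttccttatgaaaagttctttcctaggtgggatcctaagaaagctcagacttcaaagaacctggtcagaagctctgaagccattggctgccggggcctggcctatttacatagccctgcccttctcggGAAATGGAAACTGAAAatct
Slfn4, chr11:83175026-83175185, plus strand: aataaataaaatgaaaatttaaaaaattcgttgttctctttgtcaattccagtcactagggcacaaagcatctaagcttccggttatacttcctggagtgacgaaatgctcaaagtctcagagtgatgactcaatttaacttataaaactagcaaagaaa
In the Ifit1 and Ifit3 promoters the capitals stand at 2 separate places, in Rsad2 at 1, and in Gbp3 and Oas1a 2 overlapping matches form 1 run. Gbp3 has a second annotated start, whose 160 bases (chr3:142560196-142560355) held 0 matches. The Slfn4 window held no match of these letters. Over the window from 250 bases before to 50 after the start, the core was present on either strand in 23 of the 75 higher genes with a promoter sequence (30.7%), in 3 of the 27 lower genes (11.1%), and in 3.99% of all 27025 genes with a promoter. A longer form, the core followed by CT, was present in 13 of 75 higher genes (17.3%), in 0 of 27 lower genes and in 0.303% of all genes. The STAT site, TTC, any 3 bases and GAA, was present in 16 of 75 higher genes (21.3%), 3 of 27 lower genes (11.1%) and 9.55% of all genes. For the kappa B site, GGGA, any 2 bases and TTCC, the counts were 8 of 75 (10.7%) and 0 of 27, against 1.63% of all genes. The 27025 genes include genes that were not tested, whereas the higher and lower genes came from the 12393 genes tested. A share over the tested genes alone was not computed. These are matches of letters and no measure of binding.

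Few interferon ligands, receptors and sensors passed. Of 15 measured, 13 had a positive difference and 4 an unadjusted p under 0.05, which 10.9% of all genes had, and only Ifih1 passed, which encodes MDA5, a cytoplasmic sensor of double-stranded RNA. Its signal was 7.58, 8.24 and 8.16 in INS37217 replicates 1 to 3, against 7.05, 7.37 and 7.48 in saline replicates 1 to 3. Every INS37217 array lay above every saline array, with a difference of 0.69 (SE 0.16, adjusted p = 0.032, or 0.56 without the block). The signals of the interferon genes Ifnb1 and Ifng differed by 0.03 (adjusted p = 0.97) and 0.04 (adjusted p = 0.91). The list had a median difference of 0.09.

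Among 15 signalling and transcription factor genes 3 rose, 7 had an unadjusted p under 0.05, and the median was 0.21. Irf7 encodes the factor that amplifies interferon production, and it stood at 8.84, 8.98 and 8.94 in INS37217 retinas, against 8.57, 8.43 and 8.13 in saline retinas. The arrays of the 2 groups did not overlap, and the difference was 0.54 (SE 0.11, adjusted p = 0.017, or 0.30 without the block). Irf1, a factor of the response to interferon gamma, differed by 0.51 (adjusted p = 0.02, or 0.30 without the block). Usp18, a protease that removes ISG15 from proteins and damps interferon receptor signalling, differed by 0.79 (adjusted p = 0.0048, or 0.66 without the block). These calls did not hold under every omission. Ifih1 kept its call only under the omission of INS37217 replicate 1, and Irf1 only under that of saline replicate 2. Irf7 lost it without INS37217 replicate 2, INS37217 replicate 3 or saline replicate 3, and Usp18 without INS37217 replicate 2 or saline replicate 1. Irf9 and Stat2, components of the factor that binds the response element, differed by 0.45 (adjusted p = 0.45) and 0.22 (adjusted p = 0.56).

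Many antiviral effectors rose. Of 26 measured, 15 passed, all 26 had a positive difference, the median was 0.60, and in 17 the groups did not overlap. Averaged over the list, the INS37217 arrays stood at 7.42 to 7.61 and the saline arrays at 6.82 to 6.85. With any 1 array of the comparison left out, 11 to 14 of them passed, and without the block 5 did.

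Oasl2, a relative of the oligoadenylate synthetases that sense viral RNA, had a signal of 8.49, 8.31 and 8.05 in INS37217 retinas, against 7.07, 6.77 and 6.64 in saline retinas. The lowest INS37217 array was well above the highest saline array, and the difference was 1.46, a 2.74-fold change (SE 0.11, adjusted p = 2.3e-07). Ifit1 encodes a protein that binds RNA lacking the host's cap modification. It stood at 8.42, 8.69 and 8.86 with INS37217, against 7.53, 7.46 and 7.42 with saline. The groups were again apart, and the difference was 1.19 (SE 0.14, adjusted p = 6.4e-05). Rsad2 encodes viperin, an enzyme that makes a chain-terminating nucleotide. Its signal was 8.0, 8.30 and 8.51 with INS37217, against 7.07, 7.01 and 7.02 with saline, a difference of 1.24 (SE 0.13, adjusted p = 1e-05). All 3 of its probe sets passed, with differences of 0.73 to 1.24. Ifi44l, an interferon-induced gene of unsettled function, differed by 1.28 (SE 0.14, adjusted p = 2.3e-05). These 4 genes passed under every alternative that tested them.

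For other effectors replicate 1 differed from replicates 2 and 3 in both groups, and their calls were lost without the block. Ifit3, a partner of Ifit1, stood at 8.56, 9.39 and 9.11 in INS37217 retinas, against 7.47, 7.91 and 8.15 in saline retinas. Within replicate numbers 1 to 3 the INS37217 array was higher by 1.09, 1.48 and 0.96, and the difference was 1.18 (SE 0.12, adjusted p = 7.1e-06, or 0.38 without the block). Ifi27l2a, a small interferon-induced membrane protein, differed by 1.31 (SE 0.20, adjusted p = 0.00095, or 0.069 without the block). Ifit2 ranged from 7.25 to 8.23 in INS37217 retinas and from 6.66 to 7.32 in saline retinas, which overlap. Its difference was 0.79 (adjusted p = 0.0023, or 1.0 without the block). Oas1a, a synthetase of the oligoadenylate signal that activates RNase L, differed by 0.67 (adjusted p = 0.0032, or 0.56 without the block). The lowest differences of the list were those of Oas3, at 0.16 (adjusted p = 0.75), and Adar, at 0.17 (adjusted p = 0.62). Mx1, whose protein blocks influenza virus, had a difference of 0.28 (adjusted p = 0.35).

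**Figure D1:**
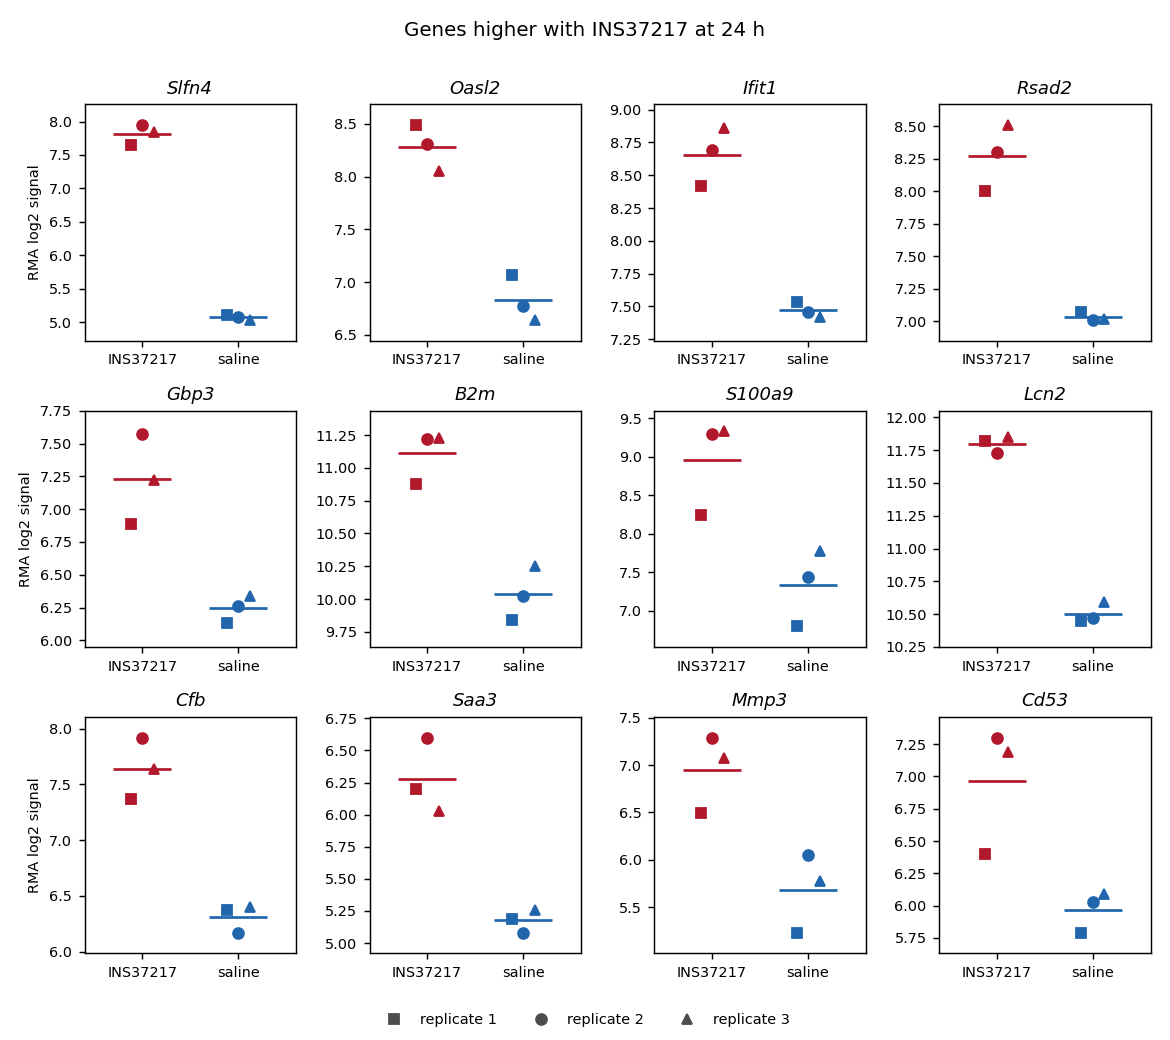
RMA log2 signal of 12 genes on each of the 6 arrays at 24 h, INS37217 in red and saline in blue; symbols give the replicate number and bars the mean of 3 arrays, and each panel has its own scale, which does not start at 0. In all 12 panels the INS37217 arrays lie above the saline arrays, and Slfn4 has the widest gap, 7.65 to 7.95 against 5.03 to 5.11.

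Slfn4 showed the largest difference of all probe sets. It belongs to the Schlafen family, interferon-induced genes that restrain growth and activation of myeloid and lymphoid cells in the mouse. Its signal was 7.65, 7.95 and 7.85 in INS37217 retinas, against 5.11, 5.08 and 5.03 in saline retinas. The 3 arrays of each group lay close together and far from the other group, and the difference was 2.74, a 6.7-fold change (SE 0.15, adjusted p = 8e-10). Slfn1 differed by 0.76 (SE 0.12, adjusted p = 0.002, or 0.35 without the block) and Slfn8 by 0.50 (SE 0.12, adjusted p = 0.04, or 0.65 without the block). Slfn8 kept its call only under the omission of INS37217 replicate 1. Of the other measured members, Slfn2 differed by 0.45 (adjusted p = 0.12) and Slfn3 by -0.02 (adjusted p = 0.97), so that 3 of 5 rose and the median was 0.50.

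Interferon-inducible GTPases coat and disrupt the vacuoles of intracellular microbes. Of 8 measured 6 rose, namely Gbp2, Gbp3, Gbp7, Igtp, Iigp1 and Irgm1, with a list median of 0.64, and without the block Gbp3 alone did. Gbp3 had 6.89, 7.57 and 7.22 in INS37217 retinas, against 6.13, 6.26 and 6.34 in saline retinas. No INS37217 array reached down to the saline arrays, and the difference was 0.98 (SE 0.11, adjusted p = 3.7e-05). Irgm1 differed by 0.84 (adjusted p = 0.021, or 0.31 without the block), Iigp1 by 0.80 (adjusted p = 0.037, or 0.40) and Gbp7 by 0.64 (adjusted p = 0.004, or 0.09). Igtp differed by 0.63 (adjusted p = 0.014, or 0.14) and Gbp2 by 0.59 (adjusted p = 0.016, or 0.51). Irgm1 lost its call without INS37217 replicate 2, INS37217 replicate 3 or saline replicate 1, Gbp7 without INS37217 replicate 2 or saline replicate 1, and Iigp1 under every omission but that of INS37217 replicate 1. The number of GTPases that passed ranged from 1 to 6 over the 6 omissions.

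Some genes of antigen presentation by MHC class I rose. B2m, the light chain shared by all class I molecules, stood at 10.88, 11.22 and 11.23 in INS37217 retinas, against 9.84, 10.02 and 10.25 in saline retinas. The groups did not overlap, and the difference was 1.07, a 2.10-fold change (SE 0.11, adjusted p = 1e-05). H2-K1, a class I heavy chain measured by a probe set that can also bind its relatives, differed by 0.48 (adjusted p = 0.016, or 1.0 without the block). Psmb8, a catalytic subunit of the immunoproteasome, differed by 0.60 (adjusted p = 0.027, or 0.56 without the block). All 12 members of the list had a positive difference, 3 passed, and the median was 0.38. Of 7 class II genes only Cd74 passed, the invariant chain, with a difference of 0.48 (adjusted p = 0.031, or 0.56 without the block). H2-K1 lost its call without INS37217 replicate 2, INS37217 replicate 3, saline replicate 1 or saline replicate 3, and both Psmb8 and Cd74 lost it under every omission but that of saline replicate 3.

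Ifi202b, a p200-family gene outside the lists whose copies in the genome are similar, stood at 6.79, 7.84 and 7.60 in INS37217 retinas, against 5.38, 6.31 and 6.34 in saline retinas. The INS37217 array was higher by 1.41, 1.53 and 1.26 in replicate numbers 1 to 3, for a difference of 1.40 (SE 0.11, adjusted p = 4.3e-07, or 0.30 without the block). The p200 family list itself held 1 measured gene, which did not pass. Mndal, another p200-family gene outside the lists, differed by 0.46 (adjusted p = 0.041, or 0.61 without the block).

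**Figure D2:**
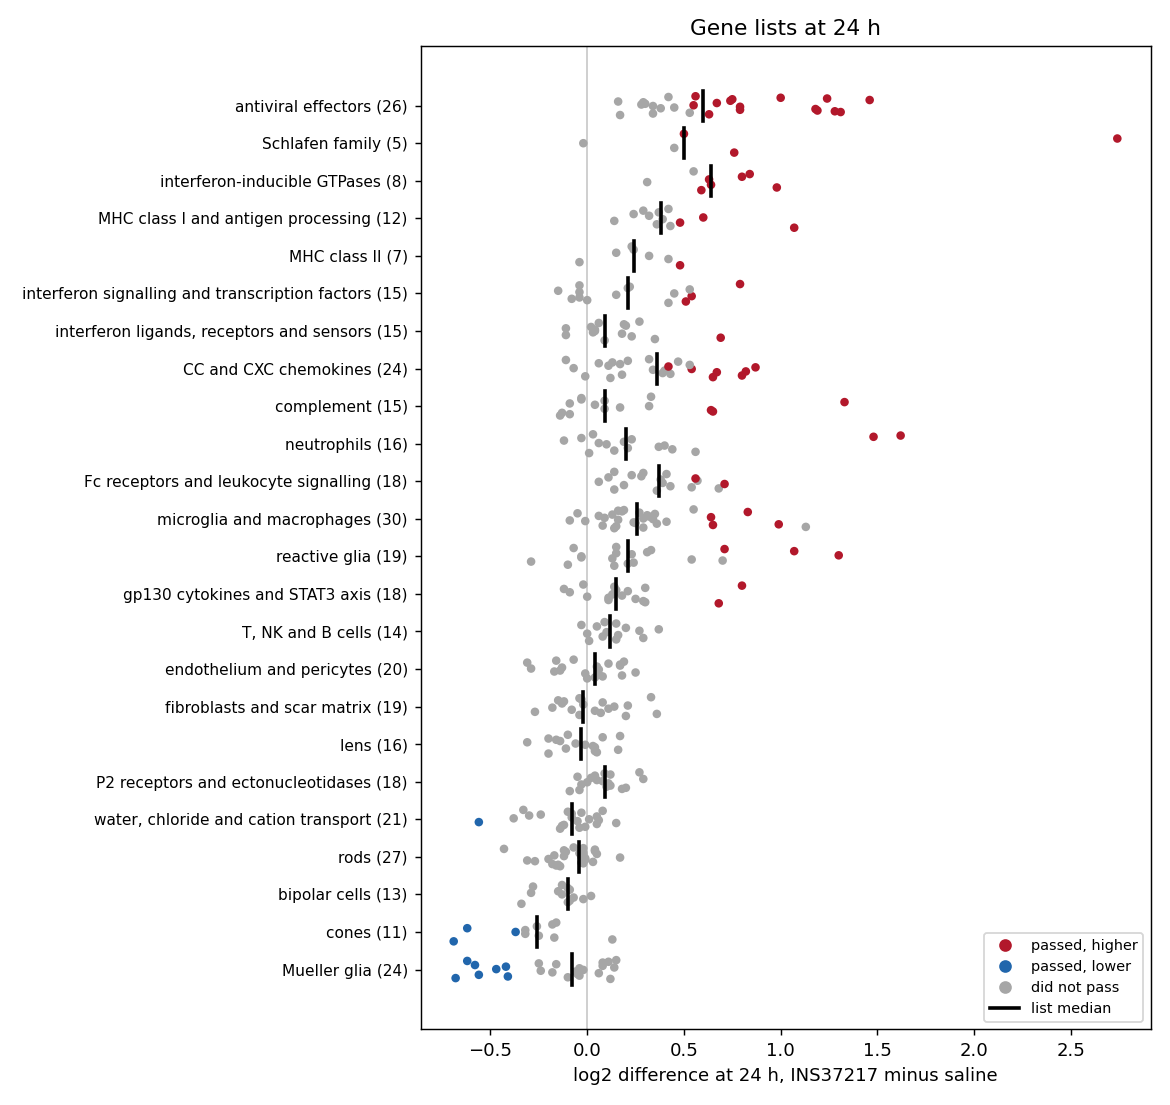
Difference at 24 h, INS37217 minus saline, on the log2 scale, for each measured gene of 24 lists, with the number of measured genes in brackets. Red points passed as higher, blue points as lower and grey points did not pass, and black bars are list medians, which run from 0.64 for the interferon-inducible GTPases and 0.60 for the antiviral effectors to -0.26 for the cone genes.

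Outside the interferon lists, the neutrophil genes S100a8 and S100a9 and a few genes known from the acute-phase response were higher. S100a8 and S100a9 form calprotectin, the main cytosolic protein of neutrophils, which is also made by activated monocytes. S100a9 stood at 8.25, 9.29 and 9.33 in INS37217 retinas, against 6.80, 7.44 and 7.78 in saline retinas. Replicate 1 was the lowest in both groups, and the groups did not overlap. The difference was 1.62, a 3.07-fold change (SE 0.22, adjusted p = 0.00022), and that of S100a8 was 1.48 (SE 0.22, adjusted p = 0.00082, or 0.095 without the block). The neutrophil list had no other member that passed: 2 of 16 did, with a median of 0.20 and list means of 6.16 to 6.41 on INS37217 arrays and 5.72 to 6.05 on saline arrays. Of the 16 genes 14 had a positive difference and 6 an unadjusted p under 0.05 in limma. Csf3r, the receptor of the neutrophil growth factor, differed by 0.56 (adjusted p = 0.082), the granule genes Mpo and Camp by -0.12 (adjusted p = 0.82) and 0.01 (adjusted p = 0.98).

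Lcn2 encodes an iron-siderophore binding protein that reactive astrocytes, Mueller glia and neutrophils release. It stood at 11.82, 11.73 and 11.85 in INS37217 retinas, against 10.45, 10.47 and 10.59 in saline retinas, and the spread within each group was small beside the gap. The difference was 1.30 (SE 0.11, adjusted p = 4.3e-07). Saa3, an acute-phase serum amyloid made at sites of inflammation in the mouse, had 6.20, 6.60 and 6.03 with INS37217, against 5.19, 5.08 and 5.26 with saline (difference 1.1, SE 0.13, adjusted p = 7.3e-05). Chil1, a chitinase-like protein of activated astrocytes and macrophages, differed by 1.17 (SE 0.11, adjusted p = 3.9e-06). Steap4, a metalloreductase induced by inflammatory cytokines, differed by 1.07 (SE 0.13, adjusted p = 8.5e-05, or 0.41 without the block). Gfap, the intermediate filament used as a sign of gliosis, stood at 9.02, 8.43 and 8.37 in INS37217 retinas, against 9.06, 8.40 and 8.46 in saline retinas. These values overlapped, with a difference of -0.03 (SE 0.11, adjusted p = 0.95). Of the 19 measured reactive glia genes 3 passed, Lcn2, Steap4 and Timp1, and the median was 0.21.

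Complement, the gp130 to STAT3 axis and the chemokines each had some members that rose. Cfb, a protease component of the alternative complement pathway, had 7.37, 7.92 and 7.64 in INS37217 retinas, against 6.37, 6.17 and 6.40 in saline retinas (difference 1.33, SE 0.15, adjusted p = 3.3e-05). C1ra and C1s1, the proteases of the classical pathway, differed by 0.65 (adjusted p = 0.002) and 0.64 (adjusted p = 0.0032, or 0.10 without the block), and C1s1 lost its call without INS37217 replicate 3. Those 3 were the only ones of 15 complement genes to pass, and the list median was 0.09. Socs3, the feedback inhibitor of STAT3 signalling, differed by 0.80 (SE 0.10, adjusted p = 8.1e-05, or 0.56 without the block). Cebpb, an acute-phase transcription factor, differed by 0.68 (adjusted p = 0.0051, or 0.48 without the block) and lost its call without saline replicate 2. They were 2 of 18 genes of that axis, whose median was 0.15.

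Of 24 chemokine genes 7 rose, Ccl2, Ccl5, Ccl6, Ccl9, Ccl12, Cxcl1 and Cxcl10, with a list median of 0.36, and without the block all 7 lost their call. Ccl2, which attracts monocytes, stood at 7.78, 8.36 and 8.25 in INS37217 retinas, against 7.18, 7.31 and 7.49 in saline retinas. The groups did not overlap (difference 0.80, SE 0.12, adjusted p = 0.0006, or 0.39 without the block). Cxcl1, which attracts neutrophils, differed by 0.87 (SE 0.17, adjusted p = 0.011, or 0.16 without the block). Ccl5 and Ccl6, attractants of T cells and monocytes, had overlapping groups, with differences of 0.67 (adjusted p = 0.019, or 0.97) and 0.82 (adjusted p = 0.042, or 1.0). Ccl12 differed by 0.65 (adjusted p = 0.032, or 0.95), Ccl9 by 0.54 (adjusted p = 0.048, or 0.50) and Cxcl10 by 0.42 (adjusted p = 0.044, or 0.28). Leaving out arrays reduced the chemokines that passed to between 1 and 5, and 2 passed with replicates 2 and 3 alone. Cxcl1 lost its call without INS37217 replicate 1, saline replicate 2 or saline replicate 3, and Ccl5 and Ccl6 lost theirs without INS37217 replicate 1, INS37217 replicate 2, saline replicate 1 or saline replicate 3. Il1b, a cytokine of activated myeloid cells, and Il1rn, the antagonist of its receptor, were the only ones of 20 IL-1, TNF and adhesion genes to pass. Their differences were 0.73 (adjusted p = 0.032, or 0.56 without the block) and 0.57 (adjusted p = 0.025, or 1.0), and the call of Il1b was lost under all 6 omissions and that of Il1rn under all but that of INS37217 replicate 1. In limma none of 13 NF-kB subunit and inhibitor genes passed, with 4 at an unadjusted p under 0.05 and a median of 0.06.

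Mmp3, a matrix metalloproteinase that cleaves many matrix proteins, had 6.49, 7.29 and 7.08 in INS37217 retinas, against 5.23, 6.05 and 5.78 in saline retinas. Replicate 1 was again lowest in both groups, which did not overlap, and the difference was 1.27 (SE 0.19, adjusted p = 0.00077). Timp1, an inhibitor of such proteinases, differed by 0.71 (SE 0.12, adjusted p = 0.0031, or 0.14 without the block). No other of the 18 protease and inhibitor genes passed.

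Genes that mark leukocytes rose in part. In pooled whole retina a larger number of cells of a type and more RNA per cell cannot be told apart. Cd53, a tetraspanin of leukocytes, stood at 6.40, 7.30 and 7.19 in INS37217 retinas, against 5.79, 6.03 and 6.09 in saline retinas, and the groups did not overlap. The difference was 0.99 (SE 0.16, adjusted p = 0.0021, or 0.50 without the block). Ptprc, the leukocyte common antigen CD45, differed by 0.83 (adjusted p = 0.012, or 0.40), Cd52 by 0.65 (adjusted p = 0.0049, or 0.32) and Lyz2, the lysozyme of macrophages and neutrophils, by 0.64 (adjusted p = 0.017, or 0.16). Ptprc lost its call without INS37217 replicate 1, INS37217 replicate 2, saline replicate 1 or saline replicate 3, Cd52 without INS37217 replicate 2 or saline replicate 1, and Lyz2 without INS37217 replicate 2, INS37217 replicate 3, saline replicate 1 or saline replicate 2.

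These 4 were the members of 30 microglia and macrophage genes that passed. Averaged over that list the INS37217 arrays stood at 6.40 to 6.45 and the saline arrays at 6.08 to 6.15. Its median difference was 0.26. Of the 30 genes 27 had a positive difference, 3 a negative one, and 13 an unadjusted p under 0.05 in limma. The markers that set microglia apart from other macrophages, Tmem119, P2ry12 and Cx3cr1, differed by 0.16 (adjusted p = 0.78), -0.05 (adjusted p = 0.95) and -0.09 (adjusted p = 0.82). Arg1, an enzyme of wound-healing macrophages, had a difference of 1.13 that did not pass (adjusted p = 0.084).

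Fcer1g, which encodes the gamma chain through which Fc receptors signal, had 7.45, 7.58 and 7.28 in INS37217 retinas, against 6.69, 6.84 and 6.66 in saline retinas, with no overlap (difference 0.71, SE 0.11, adjusted p = 0.00098). Lcp1, an actin-bundling protein of leukocytes, differed by 0.56 (adjusted p = 0.016, or 0.98 without the block) and kept its call only under the omission of INS37217 replicate 1. They were 2 of 18 genes of Fc receptors and leukocyte signalling, all 18 with a positive difference and a median of 0.37. Outside the lists, Srgn, the core protein of leukocyte granule proteoglycan, differed by 1.15 (adjusted p = 9.2e-06, or 0.10 without the block). Plac8, a small protein of myeloid and lymphoid cells, differed by 1.14 (adjusted p = 0.00035, or 0.075 without the block), and Ms4a6d, a membrane protein of macrophages, by 1.06 (adjusted p = 0.00069, or 0.14 without the block). Ms4a6d had 3 probe sets, of which 1 passed, with differences of -0.10 to 1.06. None of 14 T, NK and B cell genes passed, with 3 at an unadjusted p under 0.05, a median of 0.12 and list means of 5.16 to 5.60 on INS37217 arrays and 5.10 to 5.40 on saline arrays. The list means of macrophages, Fc receptors and neutrophils were thus higher in INS37217 retinas without overlap between the groups. The same held for lists with few calls or none. The NF-kB genes averaged 7.09 to 7.27 on INS37217 arrays and 7.04 to 7.07 on saline arrays, the immediate early genes 7.44 to 7.56 and 7.32 to 7.42. Rod list means were lower without overlap. The part of leukocyte genes in the differences of the interferon genes was not tested. Over the Fc receptor list the means were 6.38 to 6.54 on INS37217 arrays and 5.98 to 6.18 on saline arrays. Array signals have no true zero, so no marker can be called absent.

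Cone and Mueller glia genes were among those that were lower in INS37217 retinas. Arr3, cone arrestin, which ends signalling by activated cone opsin, stood at 8.44, 8.68 and 8.76 in INS37217 retinas, against 9.19, 9.58 and 9.17 in saline retinas. All INS37217 arrays lay below all saline arrays, with a difference of -0.69 (SE 0.11, adjusted p = 0.0024, or 0.65 without the block), and both its probe sets passed, at -0.91 and -0.69. Opn1sw, the short-wavelength cone opsin, had 8.62, 9.18 and 9.26 in INS37217 retinas, against 9.57, 9.65 and 9.71 in saline retinas. The groups did not overlap, but the INS37217 replicate 1 array was far below the others, and the difference of -0.62 (SE 0.11, adjusted p = 0.0039, or 0.29 without the block) became -0.46 (adjusted p = 0.058) with replicates 2 and 3 alone. Kcne2, a potassium channel subunit on the cone list, fell by 0.37 (adjusted p = 0.04, or 1.0 without the block), a call lost under all 6 omissions. Opn1mw, the middle-wavelength opsin, had a difference of -0.32 that did not pass (adjusted p = 0.15), and neither did Gnat2, cone transducin, at -0.17 (adjusted p = 0.49), nor Pde6c, the cone phosphodiesterase, at -0.26 (adjusted p = 0.41). Of 11 measured cone genes 3 fell and 10 had a negative difference, with a median of -0.26. Of 27 rod genes none passed, 2 had an unadjusted p under 0.05 in limma, and their median was -0.04. Negative differences were found in 22 of the 27, a larger share than the 52.2% of all genes. Rod list means did not overlap, at 10.83 to 10.88 on INS37217 arrays and 10.92 to 10.97 on saline arrays. Of 13 bipolar cell genes, none of which passed, 12 had a negative difference, with a median of -0.10. The difference between the cone and rod lists was not tested. Rpgrip1, a scaffold of the photoreceptor cilium, differed by -0.43 (adjusted p = 0.085) and passed through another of its probe sets (-0.46, adjusted p = 0.032, or 1.0 without the block). Averaged over the cone list, signals were 7.99 to 8.13 on INS37217 arrays and 8.27 to 8.46 on saline arrays.

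Mueller glia span the retina, buffer its potassium and handle its glutamate and retinoids. Of 24 measured Mueller glia genes 7 fell, 17 had a negative difference, and the median was -0.08. Abca8a, a lipid transporter, stood at 9.15, 9.20 and 9.10 in INS37217 retinas, against 9.82, 9.93 and 9.74 in saline retinas. Both groups were tight and did not overlap (difference -0.68, SE 0.10, adjusted p = 0.0009, or 0.10 without the block). Rlbp1, the retinaldehyde-binding protein of Mueller glia and pigment epithelium, had 7.63, 8.26 and 8.27 with INS37217, against 8.46, 8.71 and 8.74 with saline. Its difference was -0.58 (SE 0.10, adjusted p = 0.0031, or 1.0 without the block), and with replicates 2 and 3 alone it was -0.46 (adjusted p = 0.063). Spc25, a kinetochore protein placed on that list, fell by 0.62 (adjusted p = 0.002, or 0.51 without the block), while its other probe set differed by -0.03 and did not pass. Car14, a membrane carbonic anhydrase, fell by 0.56 (adjusted p = 0.016, or 0.30 without the block) and kept its call only under the omission of INS37217 replicate 1.

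Of the remaining 3, Gpr37, an orphan receptor, fell by 0.47 (adjusted p = 0.032, or 1.0 without the block), Kcnj10, the Kir4.1 potassium channel, by 0.42 (adjusted p = 0.047, or 0.50) and Apoe, a lipid carrier, by 0.41 (adjusted p = 0.037, or 1.0). Kcnj10 and Apoe lost their calls under all 6 omissions, and Gpr37 under all but that of saline replicate 2. Leaving out 1 array left 3 or 4 Mueller glia genes, replicates 2 and 3 alone left 3, and the fit without the block left 0. Glul, glutamine synthetase, and Slc1a3, the glutamate transporter GLAST, had differences of -0.02 (adjusted p = 0.98) and -0.16 (adjusted p = 0.61).

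**Figure D3:**
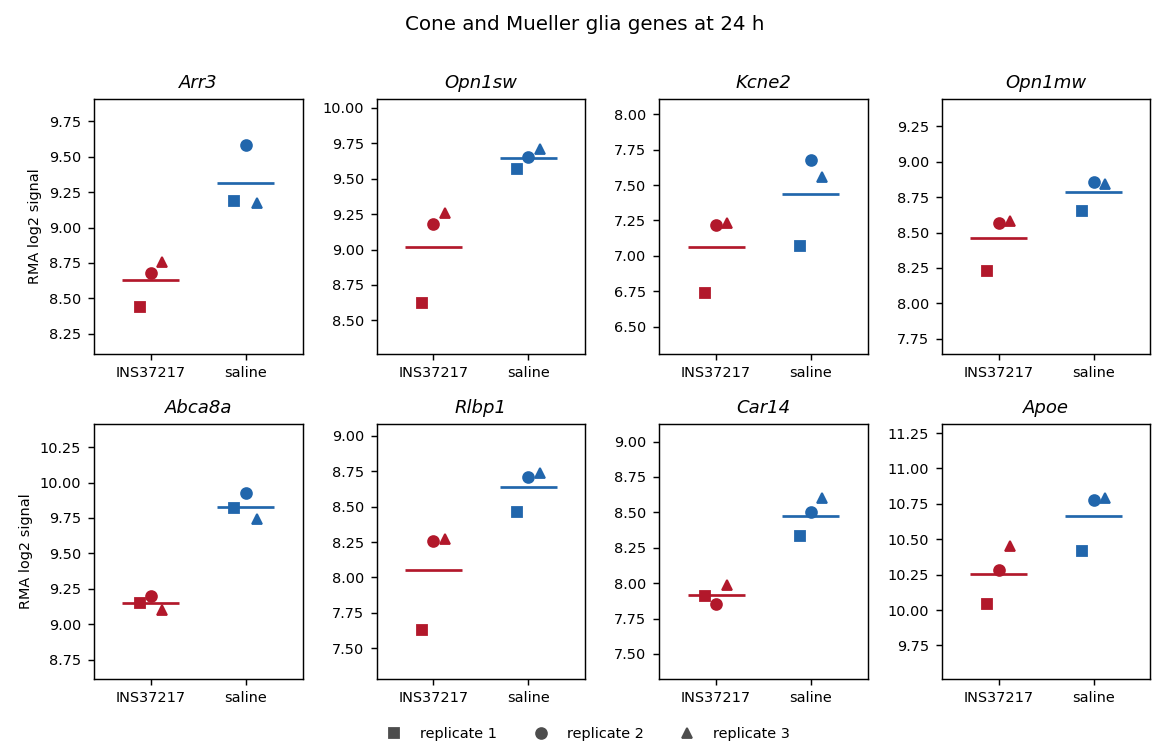
RMA log2 signal of 4 cone genes (upper row) and 4 Mueller glia genes (lower row) on each array at 24 h, INS37217 in red and saline in blue; symbols give the replicate number, bars the mean of 3 arrays, and the scales do not start at 0. The INS37217 arrays lie below the saline arrays for Arr3, Opn1sw, Opn1mw, Abca8a, Rlbp1 and Car14 and overlap them for Kcne2 and Apoe, and Opn1mw did not pass (adjusted p = 0.15).

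Other genes with large negative differences came from several cell types. Alas2, the haem synthesis enzyme of red cell precursors, stood at 6.81, 6.12 and 6.50 in INS37217 retinas, against 7.53, 7.11 and 7.23 in saline retinas. The groups did not overlap (difference -0.81, SE 0.12, adjusted p = 0.00057, or 0.16 without the block), and the other 3 measured red cell genes, with differences of 0.03 to 0.23, did not pass. Rrh, a visual pigment-like protein of the pigment epithelium, fell by 0.62 (adjusted p = 0.0072, or 1.0 without the block), and lost its call without INS37217 replicate 1 or 2. Insm1, a zinc-finger factor of neuroendocrine cells and developing neurons, fell by 0.60 (adjusted p = 0.0048, or 0.25 without the block), and Rgs11, a regulator of G protein signalling in ON bipolar cells, by 0.59 (adjusted p = 0.0048, or 1.0). Rasa2, a GTPase activator of Ras, fell by 0.61 (adjusted p = 0.003, or 1.0), Smc2, a condensin subunit, by 0.57 (adjusted p = 0.0044, or 0.32) and Wwox, an oxidoreductase, by 0.57 (adjusted p = 0.0032, or 0.90). Of 3 Wwox probe sets 1 passed, with differences of -0.57 to 0.10. Insm1 and Wwox lost their calls without INS37217 replicate 3 and Smc2 without INS37217 replicate 2. The lowest difference of all, -1.06, belonged to a probe set assigned to several genes, and such probe sets made up 6 of the 62. Of 17 pigment epithelium and melanosome genes only Rlbp1 passed, with a list median of -0.06.

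The receptor for INS37217 and the transport genes near its site of action gave no change that passed except Car14. P2ry2, which encodes the receptor, stood at 5.38, 5.47 and 5.57 in INS37217 retinas, against 5.33, 5.43 and 5.31 in saline retinas. The ranges overlapped, with a difference of 0.12 (SE 0.10, adjusted p = 0.72). None of 18 genes of P2 receptors and ectonucleotidases passed, with 2 at an unadjusted p under 0.05 and differences of -0.09 to 0.29. Of 21 water, chloride and cation transport genes Car14 was the only one to pass, and the median was -0.08. The water channel genes Aqp1 and Aqp4, of which Aqp4 is that of Mueller glia, had differences of -0.14 (adjusted p = 0.59) and -0.04 (adjusted p = 0.95).

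The remaining lists gave few calls or none. Of 31 immediate early genes only Klf2 rose, a transcription factor of endothelium and leukocytes, by 0.45 (adjusted p = 0.043, or 1.0 without the block), and its call was lost under all 6 omissions. Of 18 ganglion cell and axon genes only Sprr1a rose, a gene of injured axons, by 0.58 (adjusted p = 0.0099, or 0.15 without the block). It lost the call without INS37217 replicate 2, INS37217 replicate 3, saline replicate 1 or saline replicate 3. No gene passed among 19 fibroblast and scar matrix genes, 20 endothelial and pericyte genes, 15 muscle genes, 13 bipolar cell genes, 19 amacrine and horizontal cell genes, 24 heat shock genes, 23 cell cycle genes or 19 genes of caspases and the BCL2 family. The medians of these lists lay between -0.10 and 0.09. The same count of 0 was found for genes of the integrated stress response (19), cholesterol synthesis (18), glycolysis (19), synapses (18), the respiratory chain (21), ribosomes (14), basement membrane (16) and survival factors (22), and for the 16 lens genes. In each of the lists of this paragraph with no call, 0 to 4 genes had an unadjusted p under 0.05 in limma.

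Whether the difference at 24 h was particular to that time was tested against the differences at 2 h and 7 d, which rest on other arrays. The beta-actin gap at 2 h was 0.7 to 0.78 on INS37217 arrays and 0.93 to 1.1 on saline arrays, without overlap. Of the 16 lens genes 14 passed at 2 h, with a list median of 0.7, and 0 passed at 7 d. At 7 d the gaps of the groups overlapped. The part of RNA quality and lens tissue in the tests against 2 h was not tested. The difference at 24 h minus that at 2 h passed for 242 probe sets (1.07%), 100 with a larger value at 24 h (0.442%) and 142 with a smaller one. The difference at 24 h minus that at 7 d passed for 62 probe sets (0.274%), 22 larger and 40 smaller. Without the block 13 passed against 2 h and 9 against 7 d. In that fit 76 of the genes reported here were looked up. Among them Slfn4, Oasl2, Rsad2 and Ifit1 passed against 2 h and Slfn4 and Oasl2 against 7 d. Without INS37217 replicate 2 or 3, or any 1 saline array at 24 h, 109 to 154 passed against 2 h and 27 to 40 against 7 d. Of the 139 probe sets that were higher at 24 h, 66 (47.5%) had a difference larger than at 2 h, which is 66% of the 100. In 22 (15.8%) it was larger than at 7 d, which is all of the 22. The tests between times contain the 24 h difference by which the 139 were chosen, so these overlaps are partly built in. INS37217 retinas were also higher at 2 h in 9 of the 139 (6.47%, and 2.88% of the 312 higher at 2 h, which are 1.38% of all) and at 7 d in 32 (23%, and 22.2% of the 144 higher at 7 d). Of the 62 lower probe sets 11 were also lower at 2 h (17.7%, and 12.8% of 86) and 0 at 7 d, where a single probe set was lower. At 2 h 398 probe sets passed (1.76%) and at 7 d 145 (0.641%).

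Slfn4 had a larger difference at 24 h than at either other time. At 2 h its signal averaged 4.0 ± 0.07 in INS37217 retinas and 4.02 ± 0.08 in saline retinas (SD, n = 3 each, as for the other means below). At 24 h it averaged 7.82 ± 0.15 in INS37217 retinas and 5.07 ± 0.04 in saline retinas, and at 7 d 4.01 ± 0.46 in INS37217 retinas and 3.86 ± 0.33 in saline retinas. The difference of 2.74 at 24 h exceeded that at 2 h by 2.76 (SE 0.21, adjusted p = 4.9e-07) and that at 7 d by 2.60 (SE 0.21, adjusted p = 7.7e-07). Oasl2, Rsad2, Ifit3, Ifit2, Ifi44l, Gbp3, Slfn1, S100a9, Saa3 and Cfb also exceeded both other times, of which Oasl2 did so without the block as well. For S100a9 the means at 2 h were 6.03 ± 0.17 in INS37217 retinas and 6.01 ± 0.10 in saline retinas. At 24 h they were 8.96 ± 0.61 in INS37217 retinas and 7.34 ± 0.50 in saline retinas, and at 7 d 5.26 ± 0.22 in INS37217 retinas and 5.08 ± 0.19 in saline retinas. Its signal was thus highest at 24 h in both groups. Ifit1 was lower in INS37217 retinas at 2 h, where it averaged 5.55 ± 0.21 in INS37217 retinas and 6.11 ± 0.27 in saline retinas (difference -0.56, adjusted p = 0.049). Its difference at 24 h exceeded that at 2 h by 1.74 (SE 0.20, adjusted p = 0.00013), while the test against 7 d, where it was 0.35, did not pass.

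Other genes differed at more than 1 time, and not all of them are given here. Lcn2 was higher in INS37217 retinas at 2 h by 0.79 (adjusted p = 0.00015), at 24 h by 1.30 and at 7 d by 0.59 (adjusted p = 0.0047). Its difference at 24 h exceeded that at 7 d by 0.70 (SE 0.15, adjusted p = 0.047, or 0.45 without the block). B2m, at 2 h -0.41 (adjusted p = 0.069), was higher at 24 h by 1.07 and at 7 d by 0.63 (adjusted p = 0.0047). Srgn was higher by 1.15 at 24 h and by 1.00 at 7 d (adjusted p = 4.2e-05), with 0.06 at 2 h (adjusted p = 0.94). Ifi202b was also higher at 2 h by 0.60 (adjusted p = 0.0058) and at 7 d by 0.69 (adjusted p = 0.0025). Ccl2 and Steap4 were higher at 2 h, by 0.57 (adjusted p = 0.0094) and 0.53 (adjusted p = 0.04). At 7 d Chil1 was higher by 0.82 (adjusted p = 0.00019) and Ptprc by 0.95 (adjusted p = 0.0037). Fcer1g and H2-K1 were higher there by 0.57 (adjusted p = 0.0097) and 0.48 (adjusted p = 0.019). Lyz2 had its largest difference at 7 d, where its mean was 11 ± 0.13 in INS37217 retinas and 9.78 ± 0.08 in saline retinas, a difference of 1.22 (adjusted p = 1.1e-05), against 0.64 at 24 h. Ccl6 also had its largest difference at 7 d, at 1.95 (adjusted p = 3.4e-06). So did Timp1, at 0.96 (adjusted p = 8.6e-05), and Cd74, at 0.87 (adjusted p = 5.8e-05). The test between 24 h and 7 d did not pass for any of these genes. Over the 30 microglia and macrophage genes the median difference was 0.01 at 2 h, 0.26 at 24 h and 0.35 at 7 d, and over the 26 antiviral effectors it was -0.01, 0.60 and 0.08 at the same times.

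Among the lower genes, Arr3 had a difference of 0.16 at 2 h (adjusted p = 0.74), -0.69 at 24 h and -0.38 at 7 d (adjusted p = 0.25), and the step between 2 h and 24 h passed (-0.84, SE 0.16, adjusted p = 0.0097, or 1.0 without the block). For Opn1sw that step was -0.64 (SE 0.15, adjusted p = 0.048, or 1.0 without the block), and its other probe set differed at 24 h by -0.31 without passing. Abca8a averaged 10.21 ± 0.18 in INS37217 retinas and 10.36 ± 0.19 in saline retinas at 2 h, 9.15 ± 0.05 in INS37217 retinas and 9.83 ± 0.10 in saline retinas at 24 h, and 10.35 ± 0.27 in INS37217 retinas and 10.41 ± 0.09 in saline retinas at 7 d. Neither test of a difference between times passed for it. Alas2 was lower by more at 2 h, at -1.37 (adjusted p = 3.1e-06), and its difference at 7 d was 0.05 (adjusted p = 0.99).

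**Figure D4:**
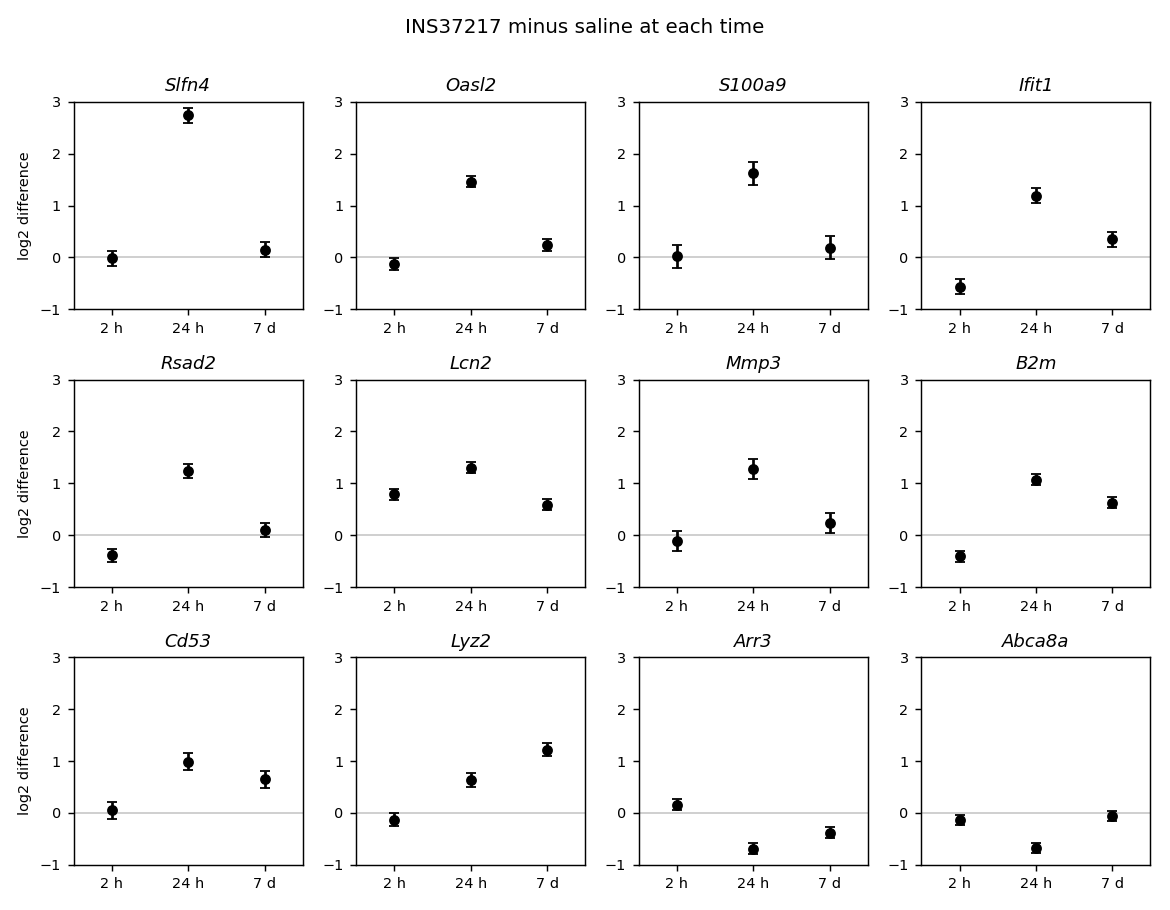
Difference INS37217 minus saline on the log2 scale at 2 h, 24 h and 7 d for 12 genes, with bars of 1 SE from the fit to all 18 arrays. Slfn4 stands at 2.74 at 24 h and near 0 at 2 h and 7 d, Lcn2 lies above 0 at all 3 times, Lyz2 is highest at 7 d (1.22), and Arr3 is lowest at 24 h (-0.69).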

How the data were processed

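Gene expression was measured on Affymetrix mouse arrays, 1 per pool of more than 5 retinas, from 7 ug of total RNA per the labels' protocols. The deposited values are log2 signals that the authors computed by RMA, per the submitters' processing notes, with version and settings not given in the sources used here. Their range, 2.83 to 14.15, fits log2. Values were used as deposited.

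Of 22690 probe sets, 64 Affymetrix controls were left out. The array's annotation gave 20380 probe sets 1 gene, 691 several and 1555 none; only the first kind is named. Each of 12393 genes was represented by its probe set of highest mean. Gene lists (45) held 906 entries, 780 of them measured.

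Differences were tested with limma 3.58.1 (R 4.3.3; lmFit, eBayes) on all 18 arrays with 6 group means and the replicate number as a block, and adjusted by Benjamini and Hochberg. Every adjusted p in the text comes from limma. At 24 h same-numbered arrays deviated together from their group means (correlations 0.854, 0.592 and 0.649; 0.426 to 0.921 over all 45 pairs of groups and numbers), which is the basis of the block; the labels do not say what the numbers stand for. Numbers 2 and 3 were hardly told apart: INS37217 replicate 2 correlated with saline replicate 3 at 0.591 and INS37217 replicate 3 with saline replicate 2 at 0.477, whereas replicate 1 correlated with the other numbers at -0.743 to -0.624. The block thus mainly separates replicate 1 from the others. On simulated data for this comparison (22626 probe sets), the fit found 49.3% of 67 changes of 0.5 on the log2 scale. It found 98.5% of 67 changes of 1 and 100% of 66 of 2, with 7 false calls among 172. The simulated arrays were built with the fitted block effect and independent noise, so they cannot show whether the block is right for the real arrays. The alternatives are given at the end.

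Genes were named by rule: the 20 higher and 12 lower genes of largest difference whose 3 same-numbered differences had 1 sign, up to 4 members per list that passed, and P2ry2, Gfap, Aqp1, Aqp4, Irf7 and Opn1mw. Some genes that the rule also covers are not reported here. Other list members given with values were chosen after their values were seen. The comparison, the lists and the rule were chosen with earlier results of these data known.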

Additional observations from a re-analysis of the deposited data

Results flagged for a closer look

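This section covers 76 of the genes whose values are given, not all of them. For 32 of the 76 the INS37217 minus saline difference at 24 h was unlike that at 2 h in limma's test of the change between times. For 15 it was unlike that at 7 d. Values are the difference at 24 h minus that at the other time, on the log2 scale, and all had an adjusted p under 0.05 in the fit with the replicate block. Without it, 4 of the 32 (Slfn4, Oasl2, Rsad2 and Ifit1) and 2 of the 15 (Slfn4 and Oasl2) passed. All but Arr3, Opn1sw, Alas2 and Wwox moved upward. Most of these genes were chosen by their difference at 24 h, which is part of the test, so this direction is partly built in. The groups at 2 h also differed in the beta-actin gap and the lens genes, as given above.

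Against both other times, Slfn4 exceeded the difference at 2 h by 2.76 and at 7 d by 2.60. Slfn1 did so by 0.78 and 0.85, Oasl2 by 1.59 and 1.22, and Ifi44l by 1.37 and 1.31, at 2 h and 7 d in that order. In the same order the values were 1.62 and 1.14 for Rsad2, 0.85 and 0.88 for Ifit2, 1.27 and 1.01 for Ifit3, and 0.96 and 0.82 for Gbp3. Of the acute-phase and neutrophil genes, S100a9 had 1.6 and 1.43, Saa3 1.06 and 0.97, and Cfb 1.06 and 1.02. The 1.62 of Rsad2 includes a difference of -0.39 at 2 h (adjusted p = 0.17).

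Against 2 h alone, the interferon genes among the 76 that passed were Ifit1 at 1.74, B2m at 1.48, Iigp1 at 1.43 and Ifi27l2a at 1.23. Usp18 had 1.15, Ifi202b 0.80 and Gbp7 0.72. Some of these values exceed the difference at 24 h because the difference at 2 h was negative. At 2 h it was -0.56 for Ifit1 (adjusted p = 0.049) and -0.41 for B2m (adjusted p = 0.069). For Iigp1 it was -0.63 (adjusted p = 0.099) and for Usp18 -0.36 (adjusted p = 0.3). Outside the 76, Igtp had 0.77 (adjusted p = 0.039) and Ccl12 0.86 (adjusted p = 0.048). S100a8 had 1.41, Mmp3 1.38, Chil1 0.90, Cebpb 0.90 and Socs3 0.83. The leukocyte genes Plac8, Srgn, Ptprc and Ms4a6d had 1.30, 1.09, 1.04 and 1.04, and Lyz2, Cd52 and Lcp1 had 0.77, 0.75 and 0.72. The cone genes Arr3 and Opn1sw had -0.84 and -0.64.

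Against 7 d alone, Steap4 had 0.90, Lcn2 0.70, Wwox -0.75 and Alas2 -0.87. The differences of Alas2 were -1.37 at 2 h, -0.81 at 24 h and 0.05 at 7 d.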

How the results depend on the processing

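The setting that mattered most was the replicate block. With no replicate block, 27 probe sets passed at 24 h in place of 201 (24 higher and 3 lower), 13 in place of 242 for the test against 2 h, and 9 in place of 62 for that against 7 d. Of the 66 genes chosen by the naming rule that passed, 15 still passed. A block of 2 levels, replicate 1 against replicates 2 and 3, chosen after seeing the data because those 2 numbers were hardly told apart, gave 195 calls, 186 of them among the 201, and kept the calls of all 66. Using only probe sets above the median level, 127 passed, 61 higher and 66 lower, so that higher calls no longer outnumbered lower ones, and 31 for the test against 7 d. With replicates 2 and 3 and no replicate block, a setting chosen after seeing the data, 153 passed, 117 higher and 36 lower. Leaving out 1 array, saline 7 d replicate 2 included, gave 88 to 216 calls at 24 h, 65 to 148 higher and 23 to 68 lower, 109 to 248 for the test against 2 h and 27 to 62 for that against 7 d. The other settings, which were quantile normalization again, equal array medians or SDs, a trended robust prior, only the arrays of the times compared, and replicates 2 and 3 with the block, kept each of the 5 counts within 1.5 times. Across all 18 settings no named gene that passed changed direction. The calls of 15 genes held under every setting that tested them, and a further 17 lost theirs only with no replicate block. Precision is limited by the 3 arrays per group.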
